A study of Homo sapiens with 17 samples.

Results

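The cytoplasmic ribosomal protein genes were followed through the time course. Members were all genes whose annotated symbol was RPL or RPS with a number, including the endings A, L and X, besides RPLP1 and RPLP2; ribosomal S6 kinases and pseudogenes were left out. Among the probe sets annotated to a single symbol, the one with the highest mean of log2(value + 16) over the arrays stood for each gene. The rule found 57 genes, 36 of the large and 21 of the small subunit, among 19775 genes named this way on the array. A further 25 coding genes of these symbols in RefSeq had no such probe set and were not analysed here, among them RPLP0, RPSA, RPL5 and RPS27A.

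The cells were IMR32, a neuroblastoma line, with a construct from which doxycycline induces NOTCH3IC, the intracellular and active part of the receptor NOTCH3. Clones c6 and c8 are each a single clone of that line, both cultured in DMEM with fetal calf serum and both given doxycycline, and RNA was measured on 1 array per clone and time. The 9 arrays of clone c6 cover times 0, 4, 8, 12, 24, 48, 72, 96 and 120, as labelled and without a unit, and the 8 arrays of clone c8 stop at 96. Times 4, 8 and 12 are called early and times 48, 72 and 96 late, with 3 arrays of each clone in each phase. No culture kept without doxycycline after time 0 and no line without the construct was analysed here, so induction, doxycycline and time in culture cannot be told apart.

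Ribosomal proteins coat the ribosomal RNA of the large and small subunits, and most are needed in equal numbers per ribosome. Their mRNAs are among the most abundant of a growing cell. Many begin with a C followed by an unbroken run of pyrimidines, the 5′ terminal oligopyrimidine (TOP) motif, through which mTOR signalling and LARP1 control their translation and stability as a group. MYC and MYCN raise the transcription of ribosome components, and IMR32 carries an amplified MYCN gene. Some members act outside the ribosome, such as RPL5 and RPL11, which bind MDM2 and so restrain the breakdown of p53, and RPS27L, a paralog of RPS27 that p53 induces.

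The starts of these genes show the motif that members share and the rule did not use. RefSeq promoter windows (build GRCh38.p14) were at hand for 49 members. A TOP start, searched on the gene's own strand as C at the annotated start followed by at least 4 of C or T, was found in 34 of the 49 (69.4%), against 5.14% of all 27305 genes in the table with any window. The pyrimidine run at the start was 5 to 19 bases long, with a median of 8. The lines below give 10 bases before the annotated start and 20 from it, 5′ to 3′ on the gene's strand, with the pyrimidine run in capitals. The first 6 genes were lower in clone c8 than in clone c6 (values below) and have a TOP start.
RPL37A: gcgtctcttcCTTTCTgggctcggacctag
RPL41: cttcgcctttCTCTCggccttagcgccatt
RPS19: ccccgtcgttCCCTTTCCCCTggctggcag
RPS16: ccctagctttCCTTTTCCggttgcggcgcc
RPS24: aatcgtggttCTCTTTTCCTCCTTggctgt
RPL39: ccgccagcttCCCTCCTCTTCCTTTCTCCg
The next 3 have none at the annotated start. RPS7 and RPL32 were also lower in clone c8, and RPS27L was the member that was higher there. RPL32 had 3 annotated starts and none opened with a TOP; the most upstream is shown.
RPS7: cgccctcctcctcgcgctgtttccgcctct
RPL32: gctaggacccaggggttacgacccatcagc
RPS27L: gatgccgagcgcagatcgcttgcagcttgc
These windows lie at chr2:216498834-216498863 (RPL37A, plus strand), chr12:56116623-56116652 (RPL41, plus), chr19:41860245-41860274 (RPS19, plus), chr19:39435930-39435959 (RPS16, minus), chr10:78033853-78033882 (RPS24, plus), chrX:119791611-119791640 (RPL39, minus), chr2:3575250-3575279 (RPS7, plus), chr3:12841563-12841592 (RPL32, minus) and chr15:63157458-63157487 (RPS27L, minus), each across the annotated transcription start.

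A TOP start was present in 22 of the 32 members in the table that were called lower in clone c8 (68.8%) and in 12 of the other 17 (70.6%), RPS27L among the latter; the difference between these shares was not tested. The 15 members without it were RPL3, RPL6, RPL9, RPL10A, RPL10L, RPL19, RPL27, RPL32, RPL36AL, RPS4X, RPS7, RPS15, RPS27L, RPS28 and RPS29. The E-box CACGTG, to which MYC proteins bind, reads the same on both strands and stood in the windows of 3 of the 49 members (6.12%) against 8.77% of all genes, in windows of 300 bases. A match is a description of these letters and no site of binding.

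Values are scaled array intensities, called signals here, and log2 changes are on the log2(signal + 16) scale. The array medians lay between 14.6 and 19.3, and the trimmed mean was 100.01 on every array. The induced gene, NOTCH3, had a signal of 94.6 in c6 and 218.3 in c8 before doxycycline, and its late means were 428.4 ± 37.1 in c6 and 777.6 ± 67.6 in c8 (SD, each n = 3). Of the line's markers, MYCN (4075 to 5493 over all arrays), GATA3, PHOX2A, CHGA and HAND2 passed the intensity filter with mean log2 values from 6.86 to 12.19. The neuronal gene STMN2 also passed it, at 5.02, but was dim (0.8 to 50.9). Most members were among the brightest genes: 47 had a mean log2 value above 12. RPL27A, RPL36A, RPLP2, RPL10L and RPL3L were read only by probe sets with a mean log2 value under 7, and RPL3L, at 4.12, lay below the filter of 4.68, which left 56 members tested (35 large, 21 small) of 13675 genes.

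**Figure D1:**
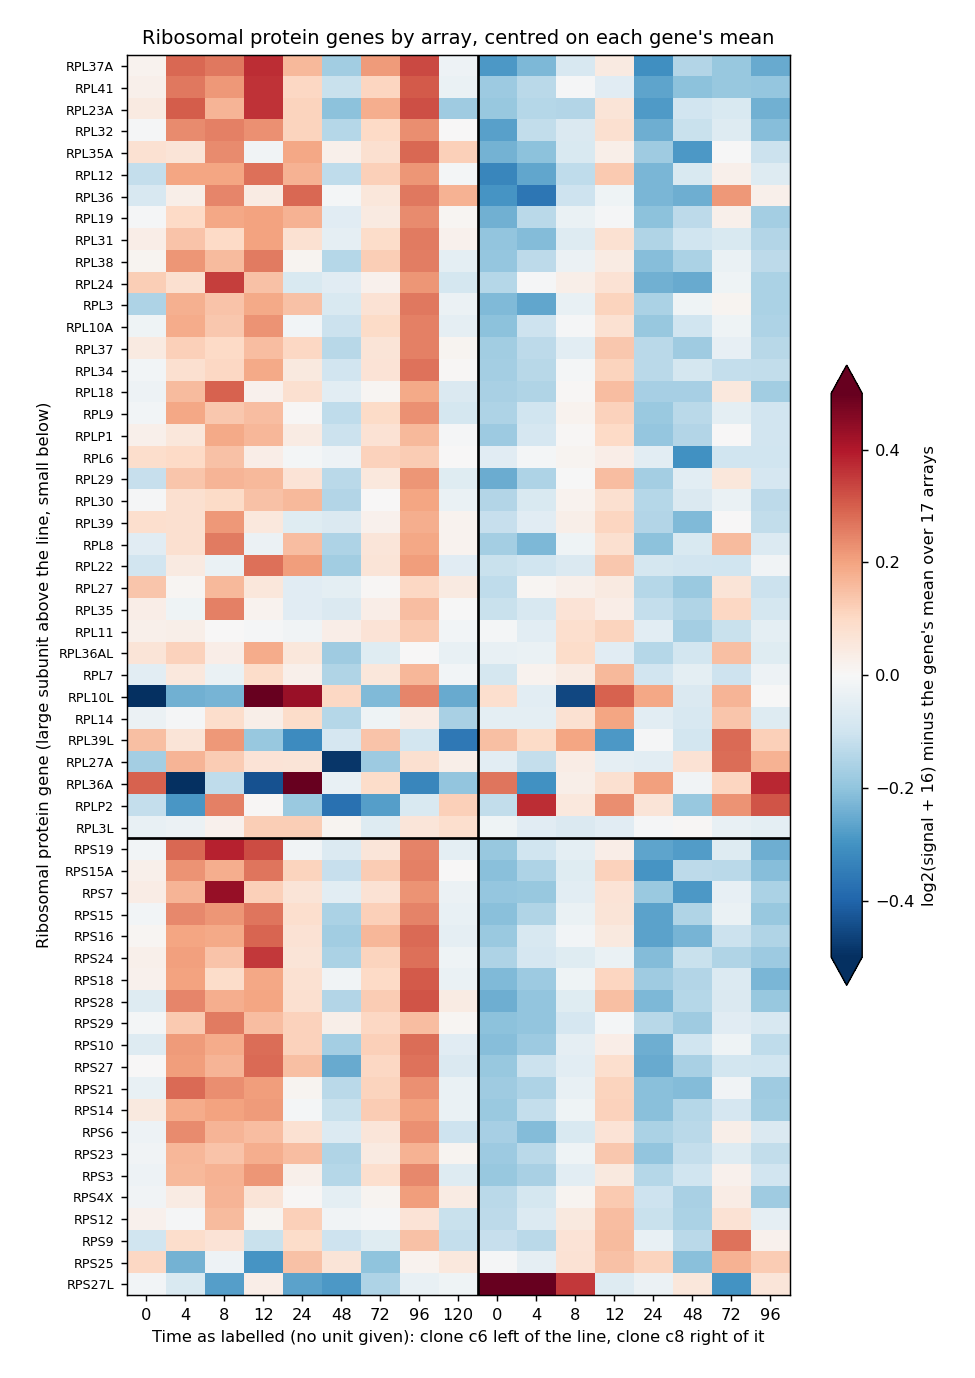
Each cell is 1 gene on 1 array, as log2(signal + 16) minus that gene's mean over the 17 arrays, with genes sorted by the difference between the clones within each subunit; colours saturate at ±0.5. Most rows share their columns: clone c6 at times 4 to 12 and 96 is above the mean, clone c8 at times 0, 4 and 24 below it, and RPS27L, RPS25, RPL36A, RPL10L, RPL39L and RPLP2 have patterns of their own.

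After induction, no ribosomal protein gene changed past the threshold. Over all times, 0 of 56 members were called (limma, Benjamini-Hochberg adjusted p under 0.05) and 7 had an unadjusted p under 0.05, where 6.61% of all genes were called. The lowest adjusted p was 0.0908 for RPS19, a small subunit protein whose loss causes Diamond-Blackfan anaemia. Late against start, 0 of 56 were called and 5 had an unadjusted p under 0.05, with 6.94% of all genes called. The members' median log2 change was 0.06, with single genes from -0.36 to 0.25, and 46 of 56 lay above 0; over all genes the median was 0.015. With arrays centred on the median of all genes tested, the members' median was -0.02. The standard error of a member's change was 0.07 to 0.20. In simulated data, genes of any spread were given a log2 change of 0.3. Of these, 3% were called late against start and 0% early against start. Changes as small as those of the members could thus be missed.

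On the deposited scale most members stood above time 0 in the early phase, without a single gene passing the test. Early against start, 0 of 56 were called by limma and 24 had an unadjusted p under 0.05, with 2.01% of all genes called. The median log2 change was 0.156, with 52 of 56 above 0, beside a median of 0.025 for all genes and 0.103 for the 100 brightest other genes, of which 84 lay above 0. The members' median was 0.08 after centring on those bright genes and -0.01 after quantile normalization, so its direction depended on the scale. In 34 of 56 members all 6 early arrays were above the time 0 array of their own clone, as in 11.8% of all genes; the clones' time 0 arrays are 1 each, so these counts rest on 2 arrays. The largest positive changes were 0.29 ± 0.09 (SE) for RPL12 and 0.26 ± 0.08 for RPL29, and the lowest limma adjusted p among the members was 0.126, for RPS19. RPL36A, read by a dim probe set, was the 1 member with all 6 early arrays below time 0, as in 9.62% of all genes, at -0.50 ± 0.20 (limma adjusted p = 0.252).

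On the deposited scale most members lay lower again in the late phase, also with none past the test. Late against early, 50 of 56 members lay below 0, with a median of -0.084, beside -0.006 for all genes and -0.123 for the 100 brightest other genes, of which 95 lay below 0. The members' median was 0.03 after quantile normalization or centring on those bright genes and 0.00 after centring on the genes in the members' range of brightness, so the direction did not hold across scales. None of the 56 was called by limma, 6 had an unadjusted p under 0.05, and 5.18% of all genes were called. RPS19 came nearest at -0.21 ± 0.06 (SE, limma adjusted p = 0.0596). Only 3 members (RPL3, RPL36 and RPS29) had all 6 late arrays above their own time 0, where 16.9% of all genes did, and 1 member, RPS27L, had all 6 below it, where 12.7% did. Early against start and late against start use the same time 0 arrays.

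Array by array, the members moved as a block within each clone. In clone c6 their median, centred on each gene's mean, was -0.005 at time 0, between 0.134 and 0.170 at times 4, 8 and 12, 0.076 at 24, -0.113 at 48, 0.070 at 72, 0.223 at 96 and -0.029 at 120. In clone c8 it was -0.176 at time 0, -0.125 at 4, -0.020 at 8, 0.080 at 12, -0.168 at 24, -0.138 at 48, -0.022 at 72 and -0.115 at 96. In clone c8 the highest array was that of time 12. In clone c6 the early arrays were high and that of time 96 was the highest, between lower arrays at 72 and 120. The medians of the large and small subunit members differed by at most 0.12 on any array. Of the summed signal of all probe sets, the members held 3.75% to 4.44% in clone c6 and 3.57% to 4.08% in clone c8.

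**Figure D2:**
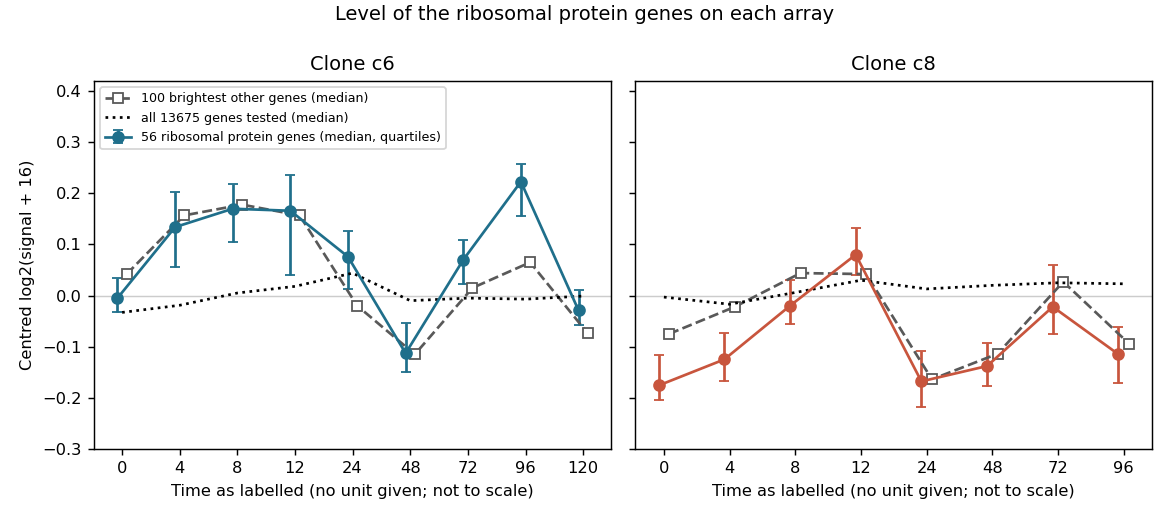
The median of the 56 ribosomal protein genes on each array (filled points, bars from lower to upper quartile of the genes) is shown with the median of the 100 brightest other genes (open squares) and of all 13675 genes (dotted), as centred log2(signal + 16) against the labelled time. The bright genes outside the ribosome follow much of the same course, for example 0.178 at time 8 and -0.115 at time 48 in clone c6.

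No member passed the test of a different response in the clones. For the difference in late minus early change, c8 minus c6, 0 of 56 members were called by limma and 2 had an unadjusted p under 0.05; of all genes 0.0% were called, with 1193 at an unadjusted p under 0.05. The members' median was 0.032, with -0.03 after quantile normalization, and their standard errors were 0.10 to 0.33, so differences of the size of the changes above were not detectable with these arrays. The genes of unadjusted p under 0.05 were RPL11 (-0.23 ± 0.10, SE, limma adjusted p = 0.559) and the dim RPL27A, whose limma adjusted p was 0.533.

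On the deposited scale the clones differed in the level of most ribosomal protein mRNAs. The calls depended on the scale, as quantile normalization kept 6 of the 36 members called. Of the 100 brightest other genes, 38 were also lower in c8 and 6 higher. Over the 8 shared times, 36 of 56 members were called by limma, where 21.7% of all genes were. Of these, 35 were lower in clone c8 than in clone c6, where 10.2% of all genes were, and 1, RPS27L, was higher, where 11.4% of all genes were. The differences were small. The median was -0.177 on the log2 scale, a 1.13-fold higher signal in c6, against 0.018 over all genes, and the members called lower were 1.09-fold to 1.29-fold higher in c6 with standard errors of 0.04 to 0.06. Each of these 35 was higher in c6 at 7 or 8 of the 8 times. In 18 of 56 members c6 was higher at all 8 times, against 6.51% of all genes, and c8 was higher at all 8 times in 0 of 56, against 7.24%. In 0 of 56 members all arrays of one clone lay above all of the other, which 1.49% (c6 above) and 1.41% (c8 above) of all genes did. In bulk RNA, fewer cells and less RNA per cell cannot be told apart, and with 1 clone of each name neither can the clone and its culture.

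**Figure D3:**
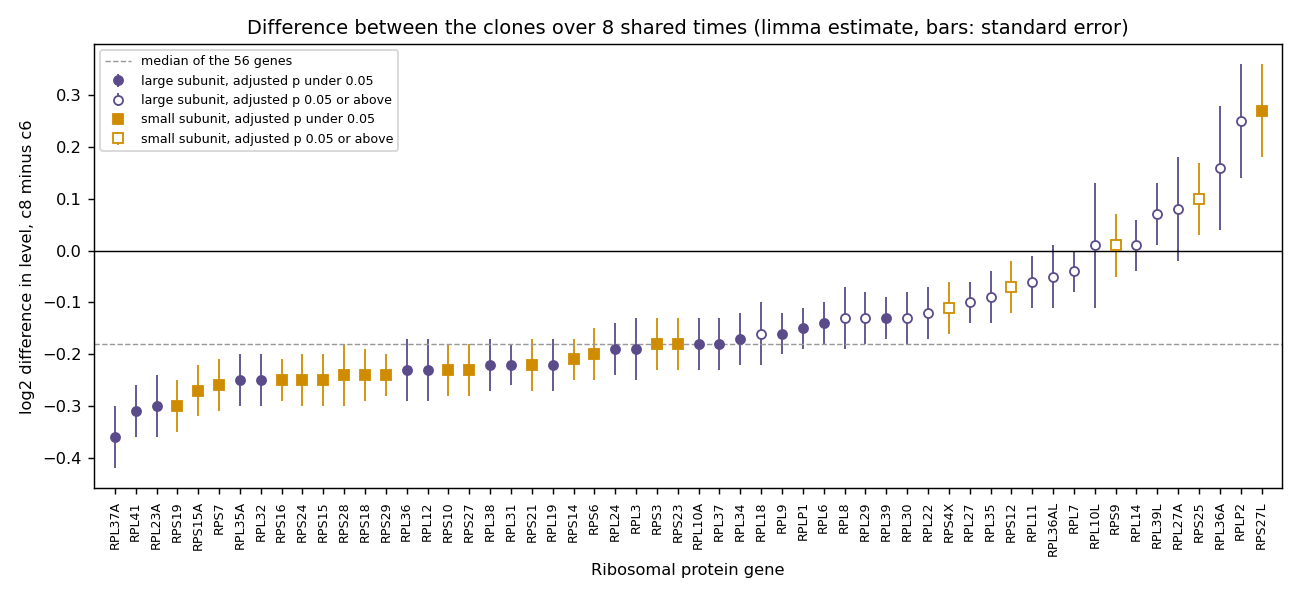
The limma estimate of the log2 difference in level, c8 minus c6, over the 8 shared times is plotted for each tested member with its standard error; circles are large and squares small subunit genes, filled where the adjusted p is under 0.05. The points run from -0.36 (RPL37A) to 0.27 (RPS27L) around a median of -0.177 (dashed).

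The largest differences were in both subunits. RPL37A, a zinc finger protein of the large subunit, had signals of 8339 to 12158 (median 11100, n = 8 shared times) in c6 and 7604.5 to 9694 (median 8149, n = 8) in c8. The ranges overlapped: c6 at times 0 (9518) and 48 (8339) lay below the highest c8 array, that of time 12. At time 48 c6 was also below c8 (8485), and it was the higher one at the other 7 times. The difference was -0.36 ± 0.06 (SE, limma adjusted p = 0.000411) in its brightest probe set; with its probe sets averaged it was -0.03 (limma adjusted p = 0.8), which ended the call.

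RPL41, the shortest ribosomal protein, had signals of 7817 to 10857 (median 9477) in c6 and 7036 to 8427 (median 7431) in c8, with c6 higher at all 8 times. Its difference was -0.31 ± 0.05 (SE, limma adjusted p = 0.000369). RPL23A, which sits at the exit of the peptide tunnel, stood at 6606 to 9802 in c6 and 6257 to 7967 in c8, a difference of -0.30 ± 0.06 (limma adjusted p = 0.00265). RPL32 and RPL35A were each lower in c8, at -0.25 ± 0.05. In all of these the clones' ranges overlapped. After quantile normalization RPL32 and RPL35A were each at -0.07 and not called (limma adjusted p = 0.162 and 0.323).

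Among the small subunit genes RPS19 differed most. Its signals were 9386, 11588, 12384, 11904, 9383, 9034, 9885 and 11265 in c6 at times 0, 4, 8, 12, 24, 48, 72 and 96, and 8314, 8862, 9164, 9710, 7900, 7805, 9064 and 8008 in c8 at the same times. Clone c6 was higher at each time, and the ranges overlapped only in that its lower arrays reached the upper ones of c8. The difference was -0.30 ± 0.05 (SE, limma adjusted p = 0.000499). RPS15A (-0.27 ± 0.05), RPS7 (-0.26 ± 0.05), RPS16 (-0.25 ± 0.04) and RPS24 (-0.25 ± 0.05) were also lower in c8, with c6 higher at all 8 times for the first 3 and at 7 for RPS24. With probe sets averaged per gene, RPS19 (-0.13, limma adjusted p = 0.0958), RPS15A (-0.02, 0.83) and RPS24 (-0.18, 0.0786) lost the call. After quantile normalization RPS19 (-0.07, limma adjusted p = 0.144), RPS15A (-0.07, 0.135) and RPS7 (-0.10, 0.0991) were not called. Neither were RPS16 (-0.03, 0.444) and RPS24 (-0.05, 0.356). Of the small subunit 16 of 21 were called lower and 1 higher, with a median of -0.226; of the large subunit 19 of 35 were called lower and 0 higher, with a median of -0.150. The difference between the subunits was not tested.

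**Figure D4:**
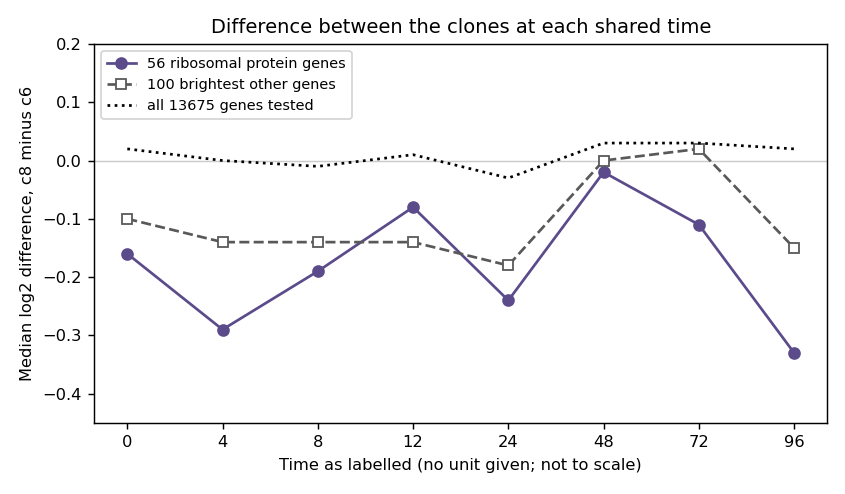
The median log2 difference between the clones, c8 minus c6, at each shared time for the 56 ribosomal protein genes (circles), the 100 brightest other genes (squares) and all 13675 genes (dotted). The ribosomal protein genes lie below 0 at all 8 times, from -0.33 at time 96 to -0.02 at time 48; the bright genes lie between -0.18 and 0.02.

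By time, the size of the difference varied. At time 0, before induction, the median member was -0.16, with c6 higher in 53 of 56 members. It was -0.29 at time 4, -0.19 at 8, -0.08 at 12, -0.24 at 24, -0.02 at 48 (c6 higher in 31 of 56), -0.11 at 72 and -0.33 at 96. Without time 0 of both clones, a setting chosen after the data were seen, 32 of 56 members were called lower and the median was -0.18. The share of all genes called in that setting is not given here.

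Measures of the arrays moved with the clones too. The log2 ratio of the 3′ to the 5′ probe set of ACTB, a usual check of RNA integrity and labelling, was 0.29 to 0.57 in c6 and 0.64 to 0.76 in c8, with no overlap; that of GAPDH was 0.00 to 0.16 in c6 and -0.10 to 0.08 in c8. The added control RNA dap read 7.09 to 7.82 in c6 and 9.17 to 10.06 in c8 on the log2 scale, and the controls lys, phe, thr, bioB and bioC were also higher in c8 without overlap. The controls bioD (11.0 to 11.4 in c6, 11.07 to 11.36 in c8) and cre (12.43 to 12.9 in c6, 12.87 to 13.16 in c8) overlapped between the clones. The part of these measures in the difference was not tested, and the sources used here do not say whether the clones' arrays were prepared together. Of the 100 brightest other genes, 38 were lower in c8 and 6 higher, with a median of -0.085, and of 427 genes in the members' range of brightness 91 were lower and 52 higher, with a median of -0.026.

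The call depended on how the arrays were put on a common scale. Centring each array on those 427 genes left 35 members lower and 0 higher (8.88% and 11.0% of all genes), with a median of -0.17. Centring on the 100 brightest other genes, chosen after the data were seen, left 24 lower and 2 higher, RPS27L and RPLP2. The members' median was then -0.09. That scale moved every gene up alike, RPS27L for example from 0.27 to 0.36. It called 5.65% of all genes lower and 20.0% higher. Quantile normalization left 5 lower (RPL37A, RPL41, RPL23A, RPL36 and RPS28) and 3 higher (RPS27L, RPL7 and RPS23), with a median of 0.01, where 9.64% of all genes were lower and 11.5% higher. RPS23 stood at -0.18 on the deposited scale and at 0.09 after quantile normalization, so its direction was not fixed. RPL37A, RPL41, RPL23A and RPS28 were called lower on each of these scales. With probe sets averaged per gene, RPL37A (-0.03, limma adjusted p = 0.8) and RPS28 (-0.09, 0.4) were not called. Of the 36 members called on the deposited scale, quantile normalization kept 6, left 18 with the same direction and no call, turned 11 without a call and turned 1, RPS23, with a call.

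The other probe sets of these genes gave a mixed picture that went with brightness. With probe sets averaged per gene, 20 of the 36 kept their call, 15 lost it, and RPL38 turned to 0.31 (limma adjusted p = 0.0326). A fit over probe sets called 3190 of all 32805 probe sets tested lower in c8 and 3062 higher. It read 54 further probe sets of members, of which 13 were lower in c8 and 8 higher, with a median of -0.064. Among the 18 with a mean log2 value above 12, 12 were lower and 0 higher, with a median of -0.17. Among the 36 dimmer ones, 1 was lower and 8 higher, with a median of 0.00. RPL38 differed by -0.22 ± 0.05 in its brightest probe set and by 0.63 ± 0.14 and 0.50 ± 0.11 in the other 2, and RPL37A by 0.47 ± 0.10 in one of its dimmer ones. A further 49 probe sets annotated to a ribosomal protein gene together with small nucleolar RNA or microRNA symbols, which the rule leaves unnamed, had 20 lower and 1 higher, with a median of -0.158; they were counted after the data were seen.

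Among the members known for further roles, RPS6 was called between the clones, and RPL11, RPL22 and RPS4X were not. RPL11, which binds MDM2, was the steadiest tested member, with an SD of 0.08 over the 17 arrays. Its signals were 4531 to 5031 (median 4679) in c6 and 4083 to 4968 (median 4438) in c8, a difference of -0.06 ± 0.05 (SE, limma adjusted p = 0.397). RPL7 was next with an SD of 0.09 and stood at 7982 to 9931 in c6 and 8243 to 9909 in c8. RPS6, the substrate of the S6 kinases downstream of mTOR, was lower in c8, at -0.20 ± 0.05 (limma adjusted p = 0.0112). Its signals were 7270 to 8981 in c6 and 6543 to 7985 in c8. The RPS6 difference was -0.01 after quantile normalization (limma adjusted p = 0.94) and -0.12 with probe sets averaged (limma adjusted p = 0.0883). RPL22, which binds viral and messenger RNAs and has a paralog that replaces it, differed by -0.12 ± 0.05 (limma adjusted p = 0.105), and the X-linked RPS4X by -0.11 ± 0.05 (limma adjusted p = 0.105).

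Of the stalk proteins that recruit elongation factors, RPLP1 was lower in c8. Its signals were 7227 to 8897 (median 8150) in c6 and 6820 to 8344 (median 7324) in c8, with c6 higher at all 8 times, and the difference was -0.15 ± 0.04 (SE, limma adjusted p = 0.0174), which quantile normalization turned to 0.04 (limma adjusted p = 0.362). RPLP2 was read by a dim probe set with signals of 13.9 to 34.1, near the array medians, and differed by 0.25 ± 0.11 (limma adjusted p = 0.132).

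Genes with a paralog gave both like and unlike pairs. RPS27 was lower in c8, at -0.23 ± 0.05 (SE, limma adjusted p = 0.00557), with signals of 7511 to 10906 (median 10009) in c6 and 7511 to 9489 (median 8334.5) in c8. After quantile normalization RPS27 was at -0.01 (limma adjusted p = 0.823). On the deposited scale its paralog RPS27L went the other way, by 0.27 ± 0.09 (limma adjusted p = 0.0328).

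The RPS27L signals were 2208, 2116, 1842, 2283, 1850, 1827, 2005, 2175 and 2197 in c6 from time 0 to 120, and 3191, 3182, 2858, 2136, 2190, 2323, 1811 and 2332 in c8 from time 0 to 96. Clone c6 stayed within a narrow band, while c8 was high at times 0, 4 and 8 and lower from time 12. From then on c8 was below c6 at times 12 and 72 and above it at 24, 48 and 96. Late against start the change was -0.36 ± 0.14 (SE, limma adjusted p = 0.168), the most negative of the members, and the difference between the clones in late minus early change was -0.27 ± 0.20 (limma adjusted p = 0.686). The call in level was lost in 15 of 29 other settings, among them those that left out the array of time 0, 4, 8, 24 or 48 of either clone. Omitting a time from either clone gives the same fit, so these settings are not all separate. The limma adjusted p-values ran from 0.00319 to 0.0943 over all settings, and the difference stayed between 0.22 and 0.55.

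The other probe sets of RPS27L also read higher in c8. The second differed by 0.87 ± 0.17 (limma over probe sets, adjusted p = 0.00243), with signals of 37.7 to 97.5 in c6 and 68.5 to 199.7 in c8. The dimmest differed by 0.51 ± 0.09 (adjusted p = 0.00125) and was 27.0 to 45.2 on the c6 arrays and 49.1 to 71.4 on the c8 arrays, without overlap. In the second probe set the highest c8 arrays were those of times 4 and 8 (199.7 and 199.4). Time 0 of c8 was at 118.8 there, below times 24 (120.4) and 48 (134.1). The dimmest was at 57.8 in c8 at time 0 and highest at time 72 (71.4), where the brightest was lowest (1811). The probe sets thus read a higher level in c8 but differed in their course over time.

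**Figure D5:**
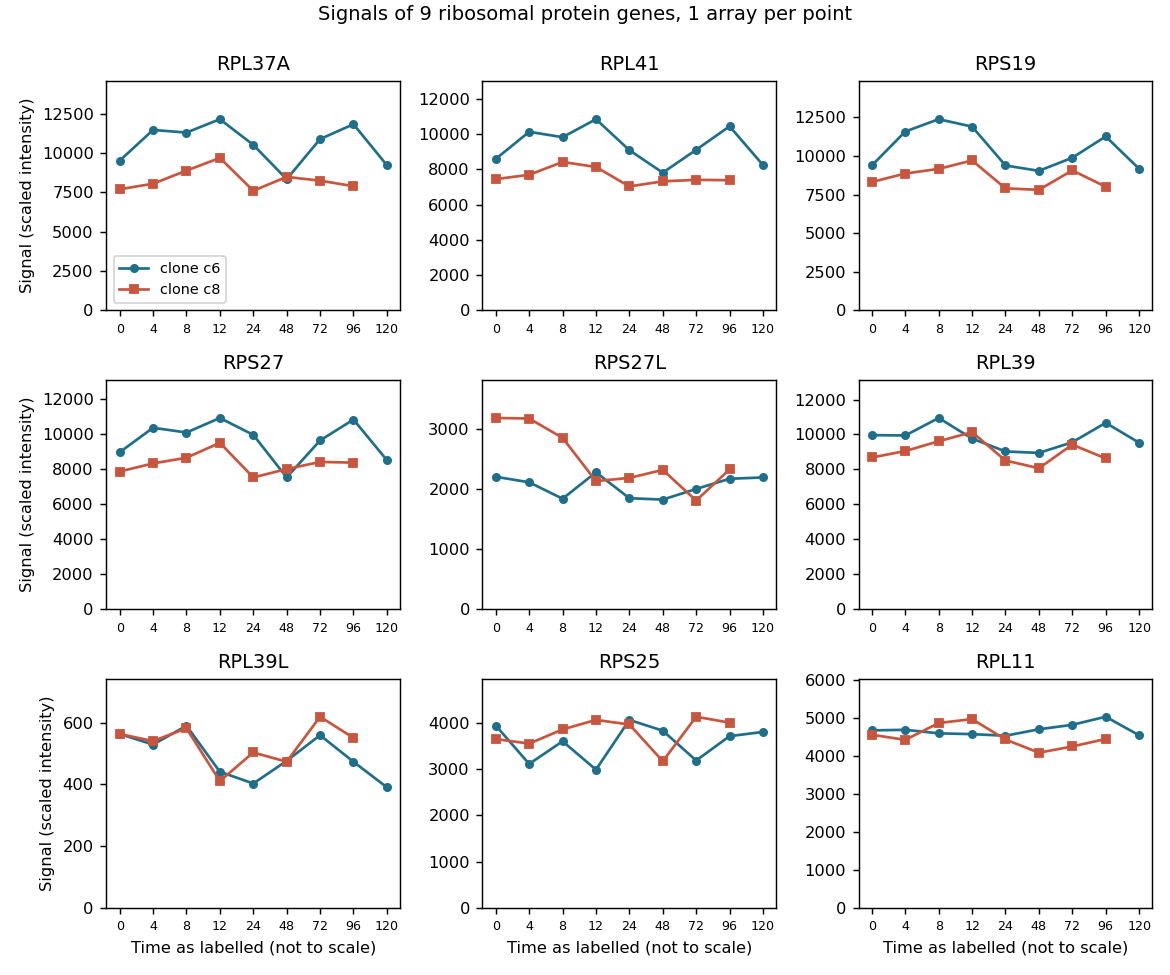
Signals of 9 members by labelled time, 1 array per point, with clone c6 as circles and clone c8 as squares and every axis starting at 0. Clone c6 lies above c8 at most times for RPL37A, RPL41, RPS19 and RPS27. RPS27L in c8 starts near 3191, falls below c6 at time 12 and lies on either side of it later. The clones cross for RPL39L, RPS25 and RPL11.

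RPL39 and its paralog RPL39L, made in testis and in some tumours, differed in pattern. RPL39 was lower in c8, at -0.13 ± 0.04 (SE, limma adjusted p = 0.0489, the highest of the 35), and at 0.11 after quantile normalization (limma adjusted p = 0.0622), with signals of 8943.5 to 10945 in c6 and 8063.5 to 10134.5 in c8. RPL39L, at 403 to 590 in c6 and 410.5 to 619 in c8 over the shared times, differed by 0.07 ± 0.06 (limma adjusted p = 0.49), and the clones followed each other at times 0 to 12 (563.2, 529.0, 589.9 and 440.7 in c6, 563.1, 540.2, 581.6 and 410.5 in c8). Its change over time had an unadjusted p of 0.0123 and a limma adjusted p of 0.122. RPL36AL, a working retrocopy of RPL36A, was steady at 1461.5 to 1881.5 in c6 and 1495 to 1837.5 in c8 (-0.05 ± 0.06, limma adjusted p = 0.62).

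The remaining paralogs were dim. RPL36A itself was read at 12.4 to 44.3 and had the largest SD of all members, 0.30. RPL10L, a retrogene of the testis, was at 11.0 to 39.2, with the second largest SD of 0.29 and a difference of 0.01 ± 0.12; its parent RPL10 was not analysed here. RPL3L, the form of RPL3 found in muscle, was at 0.5 to 2.9 on all 17 arrays, with an SD of 0.06, and was not tested, while RPL3 was lower in c8, at -0.19 ± 0.06 (SE, limma adjusted p = 0.0302; 0.01 after quantile normalization) with signals of 6325 to 8449 in c6 and 5887 to 7612 in c8. Paralogs outside the symbol rule were RPL7L1, which was lower in c8, at -0.20 ± 0.06 (limma adjusted p = 0.0218), RPL22L1 (-0.09 ± 0.05, limma adjusted p = 0.18) and RPL26L1 (-0.06 ± 0.05, limma adjusted p = 0.45). Near-identical paralogs and processed pseudogenes may share probes with members, and the probe sequences were not used here.

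Most members kept to a common course with a small spread. Their median SD over the 17 arrays was 0.15, beside 0.24 for all genes and 0.15 for the 100 brightest other genes. The median Pearson correlation over their 1540 pairs was 0.71, 0.65 within c6 and 0.72 within c8, and 0.41 after centring on the bright genes; all pairs share the arrays and their scaling. For 38 members the correlation with the median of the other members was above 0.8, among them RPS15 (0.98), RPLP1 (0.97) and RPL37A (0.96). For 8 it was under 0.5, namely RPL36A (-0.45), RPS27L (-0.44), RPS25 (-0.28), RPL39L (-0.18), RPLP2 (-0.10), RPL10L (0.13), RPL27A (0.31) and RPS9 (0.47). RPS25, a small subunit protein used by viral internal entry sites, was bright among these, with signals of 2990 to 4068 in c6 and 3173 to 4137 in c8, its lowest in c6 being at times 4, 12 and 72 where the members' median lay above its mean.

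The genes outside the ribosome most like the members' median over the 17 arrays were PABPC1 (Pearson r = 0.96), YBX1 (0.96), UBB (0.95), TPT1 (0.95) and GNAS (0.94), all of them bright. Their differences between the clones were -0.23 ± 0.05 for PABPC1, -0.21 ± 0.04 for YBX1, -0.23 ± 0.06 for UBB, -0.12 ± 0.04 for TPT1 and -0.28 ± 0.05 for GNAS (SE). These genes were chosen on the same arrays for following the members, whose median differs between the clones, so these values are a description with no test.

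Genes that work with the ribosomal proteins are given by list, the lists having been drawn up with earlier results of these data known. For comparison, 10.2% of all genes were called lower in c8 and 11.4% higher. Late against start 6.94% of all genes were called, early against start 2.01% and late against early 5.18%. Of 14 translation factors and other mRNAs known for TOP starts, 6 were lower in c8 and 0 higher, with a median of -0.138 (3 lower and a median of -0.040 after quantile normalization); the smallest p-values were those of HNRNPA1 (-0.55 ± 0.08), NACA (-0.29 ± 0.04) and NAP1L1 (-0.23 ± 0.05). None of the 14 was called late or early against start, with 1 and 3 at an unadjusted p under 0.05 by limma. FAU, which encodes a small subunit protein under another symbol, differed by -0.15 ± 0.06 (limma adjusted p = 0.0809). Of 3 small nucleolar RNA host genes 1, ZFAS1, was lower at -0.23 ± 0.06.

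For the factors that build ribosomes, calls between the clones went both ways. Of 51, 11 were lower in c8 and 3 higher, beside 10.2% and 11.4% of all genes, with a median of -0.008. NCL (-0.48 ± 0.05), UTP20 (-0.85 ± 0.09) and NOP2 (-0.63 ± 0.09), which act on ribosomal RNA, had the smallest p-values. Early against start 1 of 51 was called, BRIX1 at -0.64 ± 0.15 (SE, limma adjusted p = 0.0416), with 40 of 51 below 0 and a median of -0.151; late against start 0 were called by limma, 8 had an unadjusted p under 0.05 and 46 of 51 lay below 0, with a median of -0.141. The members lay mostly above 0 in these comparisons on the deposited scale, but their direction depended on the scale. Their median was -0.01 early against start after quantile normalization and -0.02 late against start after median centring. Whether the members and these factors differ was not tested. Late against early 1 of the 51 factors was higher, NMD3, the export adaptor of the large subunit, at 0.40 ± 0.09. Of 15 genes of RNA polymerase I transcription, 4 were lower in c8 and 2 higher, led by TAF1D (-0.45 ± 0.11), POLR1B (-0.32 ± 0.08) and TAF1B (-0.31 ± 0.08).

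Among 20 genes of mTOR signalling and TOP control, DDIT4, an mTOR inhibitor induced by stress, was higher early by 1.0 ± 0.19 (SE, limma adjusted p = 0.014) and DEPTOR, an mTOR-binding inhibitor, late by 0.91 ± 0.26 (limma adjusted p = 0.0461). In each of these comparisons the other 19 were not called. In level, 4 of 20 were lower in c8 and 0 higher, with TIAL1 (-0.37 ± 0.06), EIF4G1 (-0.37 ± 0.07) and LARP4 (-0.41 ± 0.09) of smallest p. Of 10 genes of the MYC network, MYC rose by 3.89 ± 0.38 late and 1.69 ± 0.38 early against start (limma adjusted p = 9.06e-06 and 0.0302), and no other was called in these comparisons; in level, MLXIP was lower in c8 at -0.24 ± 0.08 and none was higher.

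For the mitochondrial ribosomal proteins, which bear like names but build another ribosome, calls between the clones went both ways. Of 75, 6 were lower in c8 and 13 higher, beside 10.2% and 11.4% of all genes, with a median of -0.010. MRPL44 (-0.82 ± 0.08), MRPS28 (0.70 ± 0.07) and MRPS9 (-0.57 ± 0.08) had the smallest p-values. Late against early 1 of 75 was called, MRPL47 at -0.23 ± 0.06. A TOP start was found in 5 of 67 (7.46%). Of 15 bright reference genes, 7 were lower in c8 and 1 higher (3 and 2 after quantile normalization), with ALDOA (-0.46 ± 0.06), GAPDH (-0.31 ± 0.05) and TUBA1B (-0.26 ± 0.04) of smallest p, and B2M rose late by 0.42 ± 0.08 (limma adjusted p = 0.0036). Of 18 genes of cell division, CENPE (-0.77 ± 0.22) and BUB1 (-0.41 ± 0.14) were lower in c8 and PLK1 (1.15 ± 0.18) higher, with a median of -0.001 for the list, and none was called over time by limma, where 4 had an unadjusted p under 0.05.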

How the data were processed

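RNA of 17 samples was hybridised to Affymetrix arrays after biotin labelling from total RNA, per the labels' protocols. The authors deposited linear intensities per probe set, made with MAS5 and GCOS per the submitters' processing notes, which give no version. For the probes, the genome build is not stated in those sources. From the values, each array was scaled to a trimmed mean of 100.01, so a shift shared by most genes cannot be seen. Their number of arrays limits the precision. Of 54675 probe sets, 41097 had 1 symbol, 1801 several and 11777 none listed.

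Intensities were transformed as log2(value + 16), which understates changes of dim genes. A gene was kept where its brightest probe set reached the 40th percentile of mean log2 values (4.68). Tests used limma 3.58.1 in R 4.3.3 (lmFit, eBayes with trend), Benjamini-Hochberg adjustment over 13675 genes and a threshold of 0.05. Time terms and clone were fitted on 17 arrays (7 residual degrees of freedom), late against early on 12 arrays (9), its interaction with clone on the same 12 (8), and the clone difference on 16 arrays with time as a term (7). Arrays of neighbouring times, or the clones, stand in as replicates; nothing says that they were separate cultures, so the spread behind each p-value may be technical. The clone as a block comes from the labels.

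The members and lists were chosen with earlier results of these data known. Named were the 10 largest called differences each way, paralogs with the ending L and their parents, members known for roles outside the ribosome, the 3 largest and 3 smallest SDs, up to 3 called genes per list, and the 5 most like genes. RefSeq sequences came from GRCh38.p14. Methods were tested on simulated data. Other settings were quantile normalization, median and bright centring, pseudocounts of 1 and 64, no filter or one at the 60th percentile, means over probe sets, no trend, no block, means per phase, single clones, and the omission of each array in turn.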

Additional observations from a re-analysis of the deposited data

Results flagged for a closer look

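The late RPL11 arrays of the clones lay on opposite sides of their own time 0, which is 1 array per clone. All 3 late arrays of clone c6 lay above that clone's time 0, with a mean log2 change of 0.05, and all 3 of clone c8 lay below it, with a mean of -0.10. The test of the clone difference in late minus early change gave an unadjusted p of 0.0432 and a limma adjusted p of 0.559. All 3 late arrays of the clones lay on opposite sides in 7.61% of the 13675 genes, and all 3 early arrays in 7.03%. RPL11 was the 1 member of 56 with this pattern.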

How the results depend on the processing

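For the counts of members called and their medians, 392 of 431 values under an alternative stayed close to the values given, 5 of them medians near 0 whose sign turned, and 39 moved. Of single members lower in c8, quantile normalization turned RPS23 (0.09, called higher), RPL39 (0.11), RPLP1 (0.04) and RPL3 (0.01), the last 3 without a call, and averaging probe sets turned RPL38 (0.31, called higher). Median centring called 3 members over time (RPL24, RPL39L and RPS19) and 1 lower late against early (RPS19, -0.26), with a late against start median of -0.02. Quantile normalization gave medians of -0.01 early against start, 0.03 late against early and 0.01 between the clones, where 5 members were lower and 3 higher. Bright centring gave 0.00 late against early, -0.06 for the difference in response and 0 members higher in c8. Top centring, added after the data were seen, called 2 members higher late against start (RPL12 and RPL29) and 2 higher in c8. Its medians were 0.08 early against start, 0.03 late against early and -0.09 between the clones. That scale moves every gene alike within a comparison. In the same order, RPS27L went from -0.17 to -0.25, from -0.19 to -0.08 and from 0.27 to 0.36. Between the clones, 25 members were lower and 0 higher without the filter, 21 lower and 2 higher (RPS27L and RPL38) with probe sets averaged per gene, 22 and 0 without the trend, and 28 and 0 without the block of times, and 0 were higher without time 0. The cause of these differences was not tested. For the clone difference, the share of all genes called is given for the deposited scale, bright centring, top centring and quantile normalization only. The counts of members called under the other settings, here and below, stand without that share.

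Leaving out 1 array at a time, 28 to 36 members were lower in c8 and 0 to 1 higher, RPS27L. Leaving out an array of a shared time takes its partner's weight too, so for this difference either clone's omission gives the same fit. The counts of values above include such equal fits. In the same way 0 to 3 members were called over time (RPL23A, RPL37A and RPS27 without time 48 of c8), 0 to 1 higher late against start (RPL36, without time 72 of c6) and 0 to 1 lower late against early (RPS19, without time 96 of c6 or time 72 of c8); the median difference in response ran from -0.05 without time 48 of c6 to 0.11 without time 96 of c6. Dim members near the array medians have changes that the added 16 shrinks.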
